A study of Mus musculus with 6 samples.

Results

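In the MARIO libraries of mouse brain, 112878 of 747404 distinct read pairs held at least 1 spliced fragment, that is a fragment that the deposited file places on the genome in several blocks with gaps between them. MARIO joins RNA ends held by the same protein through a linker, and each chimeric molecule is read as RNA1, the fragment before the linker, and RNA2, the fragment behind it. The members were chosen from the 2 brain libraries by their stated start positions: a read pair entered when the start of RNA1 or of RNA2 was a list of several positions. Read pairs were collapsed to distinct positions and strands over both libraries, and the 634526 distinct brain read pairs without such a list served as the comparison. Both libraries came from the ground whole brain of 1 adult female C57BL/6J mouse, irradiated 3 times at 400 mJ/cm2 with ultraviolet light of 254 nm. The labels call them technical replicates, and no other treatment or genotype is given. All cell types of the brain are therefore mixed, and a read pair cannot be assigned to one of them. The other 4 libraries of the series, from embryonic stem cells and fibroblasts, list a single block for every fragment and were not used here.

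Introns are removed from a primary transcript by the spliceosome, which joins the exons on either side. A fragment that covers such a join matches the genome only when the intron is left out, so its gap gives the length of the intron and shows that the RNA had already been spliced. Most introns begin with GT and end with AG. A few use GC-AG, and some of those with AT-AC ends are removed by the minor spliceosome. In brain, neurons keep many very short exons (microexons) that other tissues skip, and transcripts of neurons, astrocytes and oligodendrocytes have isoforms of their own.

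Fragments that crossed some of the most used joins show what a spliced fragment is. Each sequence below was read from a deposited fragment without a mismatch to NCBIM37 and is given 5′ to 3′ along the RNA, with the last bases of the upstream exon in lower case and the first bases of the downstream exon in capitals.
Ptgds, intron at chr2:25324648-25325079, minus strand: tttcaacaagacaagTTCCTGGGGCGCTGG
Meg3, intron at chr12:110782016-110782236, plus strand: cacctctacctcctgAGCCAAGGAGCACGG
Snap25, intron at chr2:136539337-136581803, plus strand: tccggagaagacaagGTTCTTTAACGAAGC
Fth1, intron at chr19:10057474-10058670, plus strand: gtctatctgtctatgTCTTGTTATTTTGAC
Apbb1, intron at chr7:112715854-112715941, minus strand: ggagagttttggaagGATGAACCCAGTGAG
Eef2, intron at chr10:80640625-80640797, plus strand: cacaatcaaatccacCGCCATCTCCCTCTT
All 6 introns end in GT-AG and are annotated in GENCODE vM1.

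The spliced share of distinct read pairs was 15.1% in brain 1 (90957 of 602207, 95% Wilson interval 15.0 to 15.2) and 15.0% in brain 2 (91330 of 608759, 14.9 to 15.1). Counted by lines, the share was lower, at 11.8% of the 1045814 lines of brain 1 and 11.7% of the 1114447 lines of brain 2. A spliced read pair stood on 2.25 lines on average and an unspliced one on 3.00. Of the spliced read pairs of brain 1, 76.3% (76.0 to 76.6) had the same positions in brain 2, and for unspliced read pairs it was 77.1% (77.0 to 77.2). Most read pairs recur at the same positions, so a gene or junction seen in both libraries need not be an independent second sighting. Both libraries come from 1 animal, so no spread between animals can be given. All intervals cover counting error only, since distinct positions are not counted molecules.

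RNA1 was spliced in 71483 read pairs, RNA2 in 76122 and both in 34727. Of the 147605 spliced fragments, 140923 had 2 blocks, 6570 had 3, 106 had 4, 4 had 5 and 2 had 6. The shortest block of a spliced fragment had a median of 20 bases, and 28973 fragments (19.6%) had a block under 8 bases. Among fragments lying wholly in exons of genes with introns, 25.1% of RNA1 (24.96 to 25.31) and 26.9% of RNA2 (26.7 to 27.1) were spliced. RNA2 fragments were longer, with a median of 88 bases against 80 for RNA1. The share was higher in longer fragments. It was 5.65% at 40 to 49 bases (5.22 to 6.12), 15.8% at 50 to 59 bases (15.2 to 16.5), 26.8% at 80 to 89 bases (26.6 to 26.9) and 36.1% at 130 to 139 bases (32.9 to 39.4). With only fragments whose blocks all have at least 8 bases, the share under 50 bases was 2.59% (2.28 to 2.93).

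**Figure D1:**
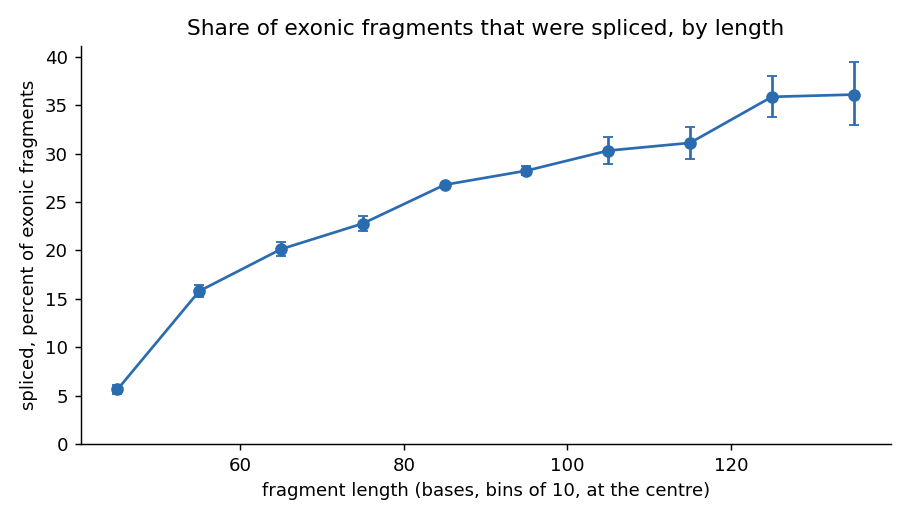
Percent of fragments lying wholly in exons of genes with introns that were spliced, by fragment length in bins of 10 bases, over the distinct read pairs of both brain libraries. Points are shares and bars are 95% Wilson intervals; bins with under 100 fragments are left out, and the share climbs from 5.65% in the first bin (2.59% with blocks of at least 8 bases only) to 36.1% in the last.

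The stated positions were first tested against the sequences. Of 4244 unspliced fragments inside the RefSeq promoter windows of GRCm38, 4244 matched GRCm38 at the stated position with at most 15% mismatches, and 90 matched NCBIM37 (2.12%, 1.73 to 2.60). The brain positions are therefore those of GRCm38. Gene and intron models were taken by sequence on NCBIM37, where 128189 of the spliced fragments (86.8%) and 81.9% of the unspliced ones could be placed with their deposited blocks and gaps. For 99.5% of the placed spliced fragments in an exon (125672 of 126285), the RefSeq gene of GRCm38 at the stated position was the gene found by sequence. The deposited gene name was that gene in 12.6% (12.5 to 12.8), and the deposited region was "intron" for 49.1% of spliced fragments. Deposited names and regions were therefore not used.

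The gaps had the lengths of introns. Over 154407 gaps, the median was 1157 bases, the middle 50% of gaps ran from 362 to 3065 bases, and the longest spanned 496721 bases. Gaps of brain 1 had a median of 1166 bases and those of brain 2 of 1173 bases. Only 140 gaps were under 70 bases, and 945 were over 100000 bases. The 243303 introns of GENCODE vM1 had a median of 1397 bases, and 54642 of them were spanned at least 1 time, with a median of 1347 bases.

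**Figure D2:**
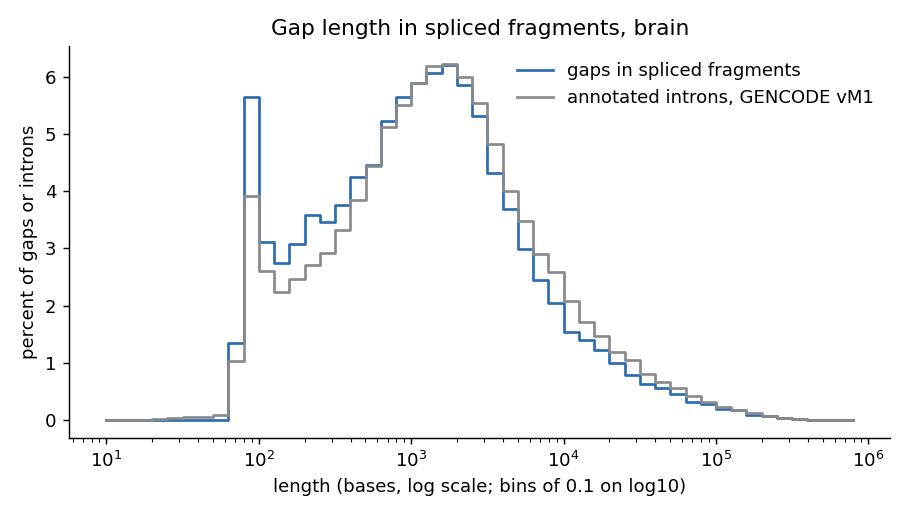
Length of the 154407 gaps in spliced fragments (blue) and of the 243303 annotated introns (grey), in bases on a log axis, as percent of gaps or introns per bin of 0.1 on log10. Both distributions have a narrow peak just under 100 bases and a broad one at greater lengths, and gaps were shorter on the whole, with medians of 1157 and 1397 bases.

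Of the 132515 gaps on NCBIM37, 130855 lay exactly at an annotated intron (98.7%, 98.7 to 98.8). The ends were GT-AG for 98.8% of gaps (98.8 to 98.9), GC-AG for 0.857% (0.809 to 0.908), AT-AC for 0.160% (0.140 to 0.183) and other for 0.140% (0.121 to 0.161). TopHat2, the aligner in the submitters' processing notes, searches for joins with these ends, so these shares also carry its preference. Of the spliced fragments in an exon on either strand, 98.8% lay on the sense strand (98.8 to 98.9), at 98.65% of RNA1 and 98.99% of RNA2. Protein-coding genes held 98.1% of the placed spliced fragments, against 62.8% of the unspliced ones, of which 19.7% lay in mitochondrial ribosomal RNA.

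Spliced fragments lay in the coding part of messenger RNA. Of 124902 spliced fragments wholly in exons of protein-coding genes, 93.5% lay between the first and the last coding base (93.4 to 93.7), 3.32% crossed the start of the coding region (3.22 to 3.42), 1.37% crossed its end (1.30 to 1.43), 1.59% lay before it (1.52 to 1.66) and 0.190% lay after it (0.167 to 0.215). Of 349753 unspliced fragments chosen in the same way, 45.3% lay inside the coding region (45.1 to 45.4) and 47.3% after it (47.2 to 47.5). Read the other way, 42.5% of exonic fragments inside the coding region were spliced (42.3 to 42.6) and 0.143% of those after it (0.126 to 0.162). The region after the coding part usually lies in 1 last exon, with no join to cross.

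Spliced read pairs were spread over many genes. In all, 9901 genes had at least 1 spliced read pair, 2608 had at least 10 and 103 at least 100, and 8897 were seen in both libraries. The 20 first genes held 5.68% of the spliced read pairs in genes. Itpr1, the inositol trisphosphate receptor that releases calcium from the endoplasmic reticulum, had 494, with 387 in brain 1 and 405 in brain 2, over 61 of 70 introns. Of its 726 exonic read pairs, 68.04% were spliced (64.6 to 71.3).

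The motors of axonal transport followed. Kif5a, a kinesin heavy chain, had 354 spliced read pairs (298 in brain 1, 277 in brain 2), Kif1a, a kinesin that carries synaptic vesicle precursors, had 348 (275 and 267), and Dync1h1, the heavy chain of cytoplasmic dynein, had 326 (269 and 248). The merged counts of Kif5a and Kif1a differed by less than the libraries did within each gene. Kif1b, a related kinesin, had 217 (179 and 180). Dync1h1 had 73 of its 77 introns spanned, each by 1 to 14 fragments. Lrp1, an endocytic receptor, had 298 spread over 87 of 92 introns, so that no intron had more than 9.

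Other genes with many spliced read pairs act in signalling, in actin regulation or at membranes. They were grouped after their values were seen, and no group was tested against a background. Camk2a, the alpha subunit of the synaptic calcium and calmodulin kinase, had 289 spliced read pairs (241 and 232) but 1166 exonic ones, which makes a share of 24.8% (22.4 to 27.3). Cyfip2, part of the complex that regulates actin branching, had 272 (224 and 213). Gnas, the stimulatory G protein subunit, had 213 (177 and 157), of 297 exonic read pairs. Atp2b2, a calcium pump of the plasma membrane, had 202 (154 and 158), and App, the amyloid precursor protein, had 200 (158 and 151).

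The other genes named have roles in translation, the cytoskeleton or endocytosis, again grouped after their values were seen. The elongation factor Eef2 had 251 spliced read pairs (194 and 192) over all 13 introns, and Eef1a1, the factor that delivers transfer RNA to the ribosome, had 226 (192 and 192). Spna2, alpha spectrin of the membrane skeleton, had 237 (185 and 181), and its partner Spnb2, beta spectrin, had 213 (176 and 180). Ank2, the ankyrin that ties spectrin to membrane proteins, had 222 (184 and 181), with 1 spanned intron of 120901 bases. Dnm1, the dynamin that cuts synaptic vesicles from the membrane, had 223 (165 and 179), and Cltc, the clathrin heavy chain, had 202 (173 and 175).

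**Figure D3:**
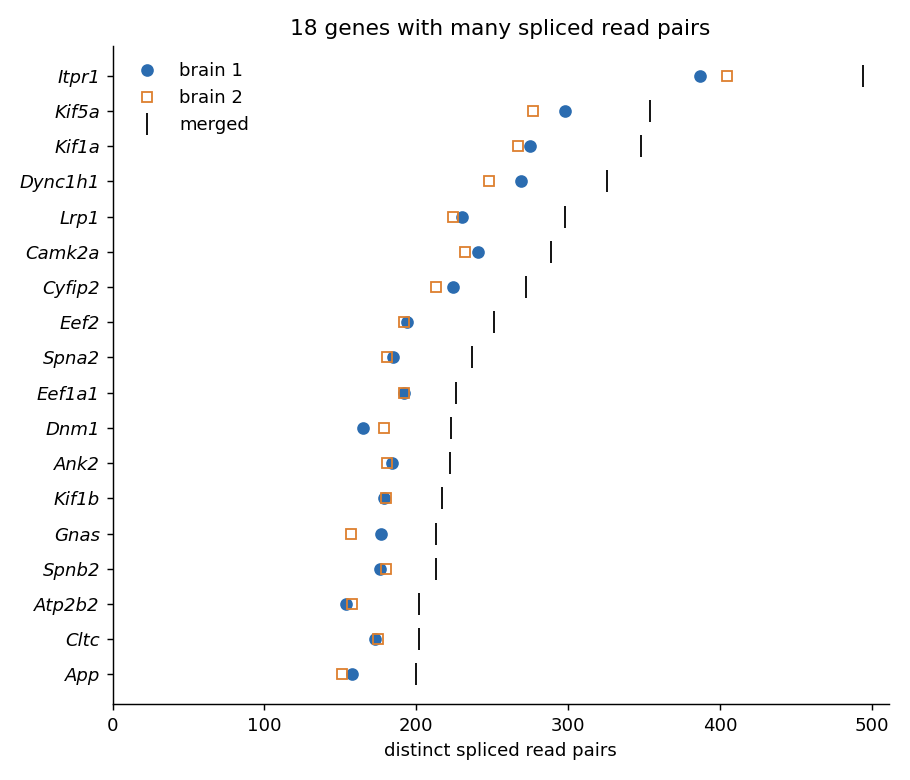
Distinct spliced read pairs of 18 of the 20 genes with most of them, in brain 1 (filled circles), brain 2 (open squares) and both libraries merged (ticks). Itpr1 stands apart from the other genes shown at 494 merged read pairs, and the circles and squares of a gene lie close together.

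By junction, 54642 annotated introns were spanned, 28796 of them in 1 distinct read pair, 1472 in 10 or more, and 43479 in both libraries. Ptgds, the prostaglandin D synthase of the brain coverings, had 73 at 1 intron (56 in brain 1, 60 in brain 2). Meg3, an imprinted long noncoding RNA, had 71 (61 and 61), as had Fth1, the ferritin heavy chain (58 and 59). Apbb1, an adaptor that binds App, had 66 at an intron of 88 bases (57 and 53), chr7:112715854-112715941. Eef2 (49 and 50) and Snap25, a membrane fusion protein of the synapse (46 and 48), each had 60, the Snap25 intron being 42467 bases long. Mbp, a myelin protein, had 59 across 18074 bases (48 and 44).

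The longest annotated introns spanned by at least 3 distinct read pairs lay in genes of cell adhesion and synapse scaffolds. They were Lsamp (355383 bases, 5 read pairs), Dlg2 (283175 bases, 6), Cntnap2 (275610 bases, 3), Opcml (270721 bases, 4) and Bai3 (266138 bases, 3). The shortest were 65 bases in Stab1 (3 read pairs), 66 in Mast1 (3), 67 in Stk11 (4) and in Actl6b (3), and 68 in Plekhj1 (4). All 10 ended in GT-AG, and each was seen in both libraries.

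Introns with AT-AC ends were rare. There were 50 annotated introns of this kind in 50 genes. Hnrnpl, a splicing regulator, had 12 read pairs at the intron chr7:29599307-29600117 (9 in brain 1 and 9 in brain 2), and Ap2a2, an adaptor of clathrin coats, had 6 (4 and 6). The voltage-gated channels Cacna1b (5), Scn8a (4) and Cacna1a (3), and the coat adaptor Ap2a1 (3), had them as well. The fragments across the 2 first are shown with the downstream exon in capitals.
Hnrnpl: tcaggctatggtggaGTTTGATTCTGTGCA
Ap2a2: acgaccttcaaactaATCTGAACCTGCAGA
Annotated GC-AG introns were more common, at 410 in 387 genes. Eef1a1 had 45 read pairs (42 and 35) at such an intron of 90 bases, Rpl37a, a ribosomal protein, had 37 (31 and 33), and Kif1a had 22 (17 and 18).

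Spliced fragments with 3 or more blocks hold whole exons. In 4199 of these passages both joins were annotated, over 2555 distinct exons with a median length of 50 bases. Of these exons, 251 had at most 27 bases, and 69.7% of the 251 had a length that is a multiple of 3 (63.8 to 75.1), so that keeping or skipping them leaves the reading frame. For the 2304 longer ones it was 39.7% (37.7 to 41.7), and for the 2144 of these with 28 to 71 bases 39.4% (37.3 to 41.5). Of all internal exons of GENCODE vM1, 58.1% of the 2953 with at most 27 bases (56.4 to 59.9) and 40.02% of the 25741 with 28 to 71 bases (39.4 to 40.6) had such a length. An annotated intron passed over 119 of the 251 (47.4%, 41.3 to 53.6) and 276 of the 2144 (12.9%, 11.5 to 14.4), against 44.02% (42.2 to 45.8) and 16.2% (15.8 to 16.7) of the GENCODE vM1 exons of at most 27 and of 28 to 71 bases. Of the 251, 247 were coding, while the GENCODE vM1 exons were chosen by length alone. The sets were therefore not matched, and no difference between them was tested. Fragment length sets which exons can lie whole in a fragment, and the longest had 108 bases.

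**Figure D4:**
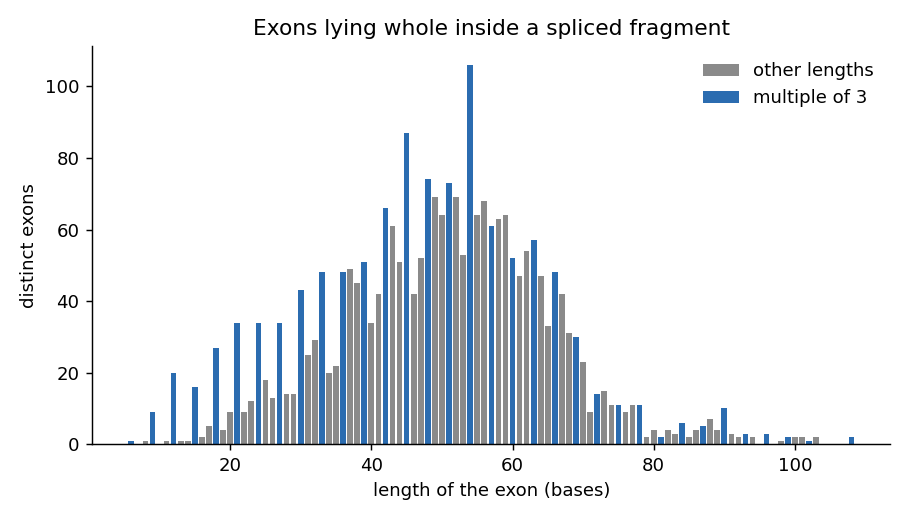
Number of distinct annotated exons lying whole inside a spliced fragment, by exon length in bases, with lengths that are a multiple of 3 in blue and others in grey. Blue bars stand above their neighbours at short lengths, where 69.7% of the 251 exons of at most 27 bases have such a length, and less so among the 2304 longer ones (39.7%).

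Some of the short exons with many read pairs are printed with the exon in capitals and its neighbours in lower case, since the whole exon fits in 1 fragment.
Uchl1, 12 bases, chr5:67067675-67067686, plus strand: aaccccgagATGCTGAACAAAgtgttggcc
Spock2, 9 bases, chr10:59583980-59583988, plus strand: cttccgagacGAGGTAGAAgatgattaca
Spna2, 15 bases, chr2:29869678-29869692, plus strand: catccagCTTTCCAAGCTGTTGagcaagc
Nfasc, 15 bases, chr1:134489928-134489942, minus strand: aatgaagCTACTCCAACTGCAGctcctcc
Snap91, 15 bases, chr9:86693665-86693679, minus strand: tggggagACCTTTTGGGAGAGGattcctt
Slc12a5, 15 bases, chr2:164822364-164822378, plus strand: tgaagccGGAGTGGGAAAACTTgaaccag
Uchl1, a deubiquitinating enzyme of neurons, held its 12-base exon in 16 read pairs (13 in brain 1, 13 in brain 2), and no annotated intron skips it. Spock2, an extracellular proteoglycan, held its 9-base exon in 13 (11 and 10). The spectrin exon of Spna2 is one that an annotated intron can skip. It was held by 10 read pairs (8 and 7) and skipped by 1. The exons of Snap91, a clathrin assembly protein of the synapse (8 read pairs), and Slc12a5, the neuronal chloride exporter (6), have an annotated skipping intron too, which no read pair used. The exon of Nfasc, an adhesion protein of the node of Ranvier, was held in 8. In Kif1a, a 27-base exon was held whole by 4 read pairs and skipped by 5, a 24-base exon was held whole by 3 and skipped by 9, and another 27-base exon was held whole by 1 and skipped by 13. The last 2 skip counts share read pairs, since 1 intron with 8 read pairs passes over both of these exons. Holding an exon whole takes both of its joins in 1 fragment and skipping it takes 1 join, so these counts do not give a share of inclusion.

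Where annotated introns share 1 end, the spliced read pairs show which partner end was used. In 464 genes, 715 intron ends had 2 or more annotated partners, and at 17 ends in 12 genes the second partner had at least 5 read pairs. Rab3a, the GTPase of synaptic vesicles, shares an acceptor just before its start codon between donors only 5 bases apart, with 11 and 7 read pairs. The fragments differ only before the join.
Rab3a, upstream donor, chr8:73278763-73279754: ctcagcttagagaggATGGCTTCCGCCACA
Rab3a, downstream donor, chr8:73278768-73279754: cttagagagggtaagATGGCTTCCGCCACA
Other ends of the 17, which were kept for the count of their second partner, lay in Gpm6b (8 and 7), Ncdn (8 and 7), Olfm1 (8 and 6), Eno2 (5 and 5), Meg3 (71 and 7) and Mbp (59 and 5). With counts this small, most shares have wide intervals, as for the second donor of Eno2 (23.7 to 76.3%).

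Junctions outside the annotation were few. They numbered 1175 against 54642 annotated ones, and 82 of them had at least 3 read pairs. The most frequent, with 24 read pairs (21 and 20), lay at the small nucleolar RNA Snora73b, with AT-AC ends on the strand opposite to it. Atp2a2, a calcium pump of the endoplasmic reticulum, had 11 at a GC-AG gap of 78 bases, and Nptn, a synaptic adhesion protein, had 10 at a GT-AG gap of 6706 bases.

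The share of exonic read pairs that were spliced varied among genes. Over the 3457 genes with introns and at least 20 exonic read pairs, the median share was 34.7% (middle 50% of genes 18.9 to 52.6). Shares of 100% were reached by genes of ribosomal proteins: Rpl9 (80 of 80), Rpl37a (49 of 49), Rps10 (46 of 46), Rps19 (36 of 36) and Rpl31 (35 of 35). At the stated positions of Rpl9 there were also 42 unspliced fragments, none of which could be placed uniquely on NCBIM37, and for Rps10 there were 46, so these shares rest on the fragments that could be placed. Among genes with at least 3 introns and at least 100 exonic read pairs, low shares were those of Malat1, a nuclear noncoding RNA (1 of 1164), Lars2, a mitochondrial transfer RNA ligase (4 of 3555), and Zbtb20, a transcription factor (3 of 207). The lowest of all genes were those without an intron: mt-Co1 (0 of 2900, which allows up to 0.103%, taken as 3 counts of the total here and for the next genes), the RNA of RNase MRP (0 of 2889, up to 0.104%), AC027184.1 (0 of 2877, up to 0.104%), mt-Cytb (0 of 1911, up to 0.157%) and Snord17 (0 of 1094, up to 0.274%).

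For groups of genes, the share pooled over exonic read pairs is given with the median of the group's genes that have introns and at least 20 of them, the latter being the value to set beside 34.7%. Of all 13274 genes with exonic read pairs, 74.6% (73.8 to 75.3) had a spliced one, and of the 12697 with introns 77.9% (77.1 to 78.6). The counts of members are to be read against these shares, which are not matched for depth. Of the 12697, only 3457 had at least 20 exonic read pairs, whereas the lowest count in the neuron list was 58, for Rbfox3. No difference between groups was tested. All 24 genes of the neuron list with exonic read pairs had spliced ones, 2466 in all, at a pooled share of 35.9% (34.8 to 37.0) and a median of 34.2%. Among its leading members, beside Camk2a, was Slc17a7, the vesicular glutamate transporter (154 of 320). All 14 of the astrocyte list had them, at a pooled 24.2% (22.9 to 25.5) and a median of 29.7%. Slc1a2, the glutamate transporter, held 2077 of the 4056 exonic read pairs of this list, 150 of them spliced, and without it the pooled share was 41.9% (39.8 to 44.1). Other members were Sparcl1, a secreted matrix protein (146 of 311), and Cpe, a carboxypeptidase (129 of 251). In the oligodendrocyte list, 10 of 12 had them, at a pooled 29.5% (27.3 to 31.9) and a median of 37.1%, with Fth1 (116 of 459), Mbp (103 of 278) and the transferrin gene Trf (67 of 89). Of the microglial genes, 5 of the 9 with exonic read pairs had 80 spliced ones, a pooled share of 37.6% (31.3 to 44.2) with a median of 52.9% over Cst3 and Csf1r. Of the 80, Cst3 had 51, Csf1r 18, P2ry12 1 and Tmem119 1. Of the endothelium, choroid plexus and blood list, 4 of the 6 with exonic read pairs had them, at a pooled 53.7% (44.9 to 62.2), and Ttr alone had at least 20, at 56.4%, with 57 of 66 spliced read pairs in Ttr, the transthyretin of the choroid plexus, 6 in Flt1, 2 in Pecam1 and 1 in Hba-a2.

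The translation list, which takes in every gene whose symbol starts with Rpl or Rps, had spliced read pairs in 96 of the 99 genes with exonic ones and a pooled share of 64.3% (63.0 to 65.6). The prefix also brought in 11 such genes that are not ribosomal proteins, chiefly the Rps6k kinases, and without them the counts were 86 of 88 and the pooled share 65.2% (63.9 to 66.5). The median gene of the whole list stood at 86.5%, with the limit on unspliced fragments given for Rpl9. Eif4g2 (152 of 372) and Eef1a2 (111 of 195) followed Eef2 and Eef1a1. The energy list stood at 58.2% (55.8 to 60.5) with a median of 63.1%, led by the glycolytic Aldoa (168 of 257), the ATP synthase subunits Atp5b (145 of 229) and Atp5a1 (103 of 164), and the creatine kinase Ckb (136 of 247). The cytoskeleton list stood at 46.8% (44.9 to 48.7) with a median of 39.1%, and after its kinesin, dynein and spectrin genes came Actb with 150 of 338. Splicing factors stood at 23.4% (20.6 to 26.5) with a median of 24.4%, among them Hnrnpk (34 of 49), Ddx5 (30 of 133), Srrm2 (24 of 241) and Hnrnpa2b1 (22 of 43). Noncoding RNAs with introns stood at 15.9% (14.2 to 17.7) with a median of 13.2%, among them Meg3 (169 of 1068), Rian (49 of 106), Snhg11 (32 of 387) and Miat (6 of 56). In the list used as a check, of mitochondrial RNAs and nuclear RNAs with no or rarely used introns, 76 of 140628 exonic read pairs were spliced (0.0540%), chiefly in mt-Rnr2 (37), mt-Rnr1 (34), mt-Nd1 (2) and Malat1 (1).

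The partner fragments were examined next. Of the spliced read pairs with both ends in annotated genes, 97.9% had both ends in 1 gene (79084 of 80746), against 97.6% of the unspliced ones (362979 of 372048). The difference was 0.379 percentage points (95% interval 0.268 to 0.487; adjusted p = 1.37e-10, two-sided Fisher's exact test on distinct read pairs, Benjamini-Hochberg over 2 tests). In brain 1 alone 98.3% of the spliced ones had both ends in 1 gene, and in brain 2 alone 98.5%. The p describes the read pairs of these libraries and not a spread between samples. The difference did not hold up: with both ends in exons of genes with introns it was 0.00147 points (-0.0813 to 0.0823), and with every line counted it turned to -0.148 points (-0.203 to -0.0947). Read pairs between genes more than 2000 bases apart made up 1.97% of spliced and 2.24% of unspliced ones, a difference of -0.270 points (-0.375 to -0.161; adjusted p = 1.55e-06, two-sided Fisher's exact test), which became 0.206 points (0.155 to 0.260) with every line counted. Without brain 1 the between-gene difference was -0.179 points (-0.278 to -0.0758), and without brain 2 it was -0.226 points (-0.330 to -0.117). The libraries share most positions, so these values are not independent of each other. Only 74 spliced and 747 unspliced read pairs joined near genes. The between-gene comparison is therefore close to the mirror of the 1-gene comparison and adds little to it.

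Of the 112878 spliced read pairs, 27.1% (26.8 to 27.4) had an end that could not be placed and enter none of these shares, and 70.1% (69.8 to 70.3) had both ends in 1 gene. Where only 1 fragment of a read pair in 1 gene was spliced, its partner lay wholly in exons in 97.7% (51297 of 52481, 97.6 to 97.9), across an exon boundary in 1.55% (1.45 to 1.66) and wholly in an intron in 0.701% (0.633 to 0.776). Among unspliced read pairs in 1 gene with introns, 50.6% of RNA2 lay wholly in an intron (50.4 to 50.8). Of RNA1 in the same unspliced read pairs, 50.6% did too (50.4 to 50.7). A spliced fragment lies in exons by its nature, so the 2 sets are not alike and their shares cannot be compared directly. Atp6v1e1, a subunit of the vesicular proton pump, and Grina, a membrane protein, had 7 each of the 368 intronic partners. These were the highest counts of any gene. The 2 genes were named after their values were seen.

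The order along the transcript was mostly that of RNA1 before RNA2. With both ends in exons of 1 gene with introns, RNA1 lay wholly 5′ of RNA2 in 80.2% of 77257 spliced read pairs (79.9 to 80.4) and in 76.5% of 122137 unspliced ones (76.3 to 76.7), a difference of 3.65 percentage points (3.29 to 4.02). RNA1 lay 3′ of RNA2 in 14.49% and 17.02% (difference -2.53, -2.85 to -2.20), and the fragments overlapped in 5.35% and 6.47% (difference -1.13, -1.34 to -0.915). In brain 1 alone 81.2% of the spliced read pairs had RNA1 first, and in brain 2 alone 81.2%. No test was made of these differences. The distance was short. With RNA1 first, the median was 41 exonic bases between the fragments (middle 50% 27 to 60) in spliced and in unspliced read pairs alike, and 97.2% of the spliced ones were within 200 bases. With RNA1 behind, the median was 55 exonic bases for spliced and 60 for unspliced read pairs. For its structural analysis, the paper filtered out read pairs of 1 gene that lacked linker sequence or could be intact RNA. The latter had ends on opposite strands within 2000 bases or the plus-strand read at the smaller coordinate. No such filter was applied here. How many read pairs with RNA1 first came from intact RNA was not tested.

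**Figure D5:**
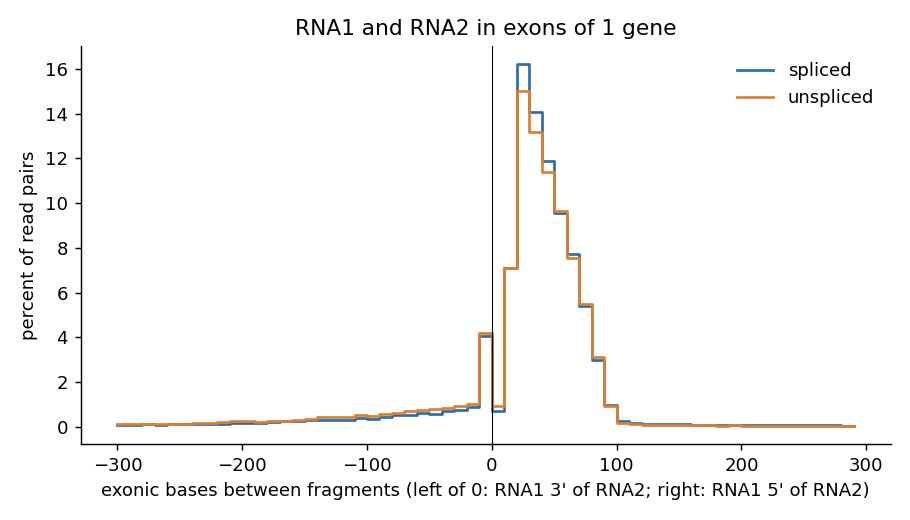
Exonic bases between RNA1 and RNA2 in read pairs with both ends in exons of 1 gene, in bins of 10 bases, as percent of spliced (blue) and unspliced (orange) read pairs; to the right of 0 RNA1 lies 5′ of RNA2, to the left 3′. Both curves peak at 20 to 30 bases on the right (median 41 bases), and a bin next to 0 on the left holds adjoining fragments in the opposite order.

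Several gaps often stood in 1 read pair. In 1 gene, the fragments of a spliced read pair held 1 distinct gap in 64.8% (51231 read pairs), 2 in 32.9% (26056), 3 in 2.16% (1706), 4 in 89 read pairs and 5 in 2. The next shares cover read pairs with both ends in exons of 1 gene with introns and no overlap of the fragments. Another annotated intron lay between RNA1 and RNA2 in 22.8% of the spliced ones (22.5 to 23.1), against 11.9% of unspliced ones (11.7 to 12.1). The 2 sets lie in different parts of the transcript. After the coding region, usually 1 last exon, lay 47.3% of unspliced and 0.190% of spliced exonic fragments of protein-coding genes. The difference was not adjusted for this. Where both fragments were spliced, 187 of 26603 read pairs had the same gap on both sides.

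Spliced read pairs between genes were scattered. There were 1588, of which 30 had a fragment that also lies in the partner gene. The other 1558 joined 1535 pairs of genes, 22 of them in 2 or more read pairs and 1 in 3. That one was Slc17a7 with the mitochondrial ribosomal RNA mt-Rnr2, with 3 read pairs in brain 1 and none in brain 2. Aes, a corepressor, with mt-Rnr2, Ank2 with mt-Rnr2, Bag6, a chaperone, with mt-Rnr1, and Caln1, a calcium binding protein, with Ranbp3 had 2 each, as did others. Both ends were protein coding in 70.2% of spliced between-gene read pairs against 51.9% of unspliced ones (difference 18.3 points, 15.8 to 20.8), and an end lay in mitochondrial ribosomal RNA in 19.5% against 33.1% (difference -13.6, -15.8 to -11.4). Of all placed spliced fragments, 98.1% lay in protein-coding genes and 0.0554% in mitochondrial ribosomal RNA. The choice of members therefore sets much of both differences, and they do not describe the partner alone. Of the 1588, 1056 were seen in brain 1, 964 in brain 2 and 432 in both. Of all spliced read pairs of brain 1, 76.3% had the same positions in brain 2. The paper estimated random ligation with a mix of fly cells and mouse embryonic stem cells. No such level was measured for the brain libraries, so the named pairs of genes have no noise level beside them. A further 74 spliced read pairs joined genes within 2000 bases of each other, among them 9 of Prrt2 with 2900092E17Rik.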

How the data were processed

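The deposited brain files hold positions and annotations as other values, with no measured level: per the labels and the study's methods, the authors removed PCR duplicates, split each molecule at the linker, mapped RNA1 and RNA2 (TopHat2 2.1.1 and mm9 are in the submitters' processing notes) and annotated them. Here distinct read pairs were taken over both libraries, and all fragments were aligned to NCBIM37 with minimap2 2.31 (splice:sr, mapping quality at least 10). The deposited blocks and gaps were then laid at the aligned place, with at most 20% mismatches a block. The strand of RNA1 is as stated and that of RNA2 is reversed. Genes and introns are those of GENCODE vM1, and coordinates are 1-based on NCBIM37. Shares have 95% Wilson intervals, and differences have Newcombe intervals. The steps were tested on simulated fragments.

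Named were the 20 genes and 10 junctions with most read pairs, and the 5 longest and 5 shortest annotated introns. The leading 5 gene pairs, 4 members of each list, and the 5 genes of highest and of lowest share were named too. Genes with at least 3 introns and a low share, and those named for rare splice ends, short exons, alternative ends and unannotated joins, were chosen after their values were seen. Sequences were limited to 30 bases, with none from chromosome 18. The members and lists were chosen with earlier results of these data known. Some items that the rule names are not reported here.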

Additional observations from a re-analysis of the deposited data

How the results depend on the processing

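No paired analysis was possible because the libraries compared are technical replicates of 1 group, so that no groups share replicate numbers. With every line counted, the spliced share was 11.8%, RNA1 7.62%, RNA2 7.95%, the median gap 1209 bases, the sense share 99.1%, the share of fragments of 70 or more bases 25.8%, the sharing between libraries 81.0% and RNA1 first 83.0%. The 1-gene difference turned to -0.148 percentage points and the between-gene difference to 0.206. With deposited gene names they turned to -6.29 and 6.29. The 1-gene difference was 0.00147 points with both ends in exons of genes with introns and 0.0742 (-0.0338 to 0.182) within classes of fragment length by the Mantel-Haenszel method, so neither passed the threshold. The cause of these changes was not tested.

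With all blocks at least 8 bases, the spliced share was 11.8%, RNA1 7.27%, RNA2 7.79%, and that of fragments of 70 or more bases 22.7% and under 50 bases 2.59%. Without mitochondrial ends the shares were 18.5%, 11.8% for RNA1 and 12.5% for RNA2. Gaps at an annotated intron made up 98.8% within 5 bases and 98.6% by deposited gap length against the RefSeq gene. Leaving out either library gave spliced shares of 15.0 to 15.1%, median gaps of 1166 to 1173 bases, sense shares of 98.95 to 98.98% and RNA1 first in 81.2%. With gaps of at least 70 bases, all 15 results kept their direction and call. With 1 animal, nothing here measures the spread between brains, and fragments that could not be placed uniquely limit genes with close copies. Leaving out the member with most exonic read pairs, an alternative chosen after seeing the data, moved the pooled share of a gene list by over 1.5 times for the astrocyte list alone of 11 lists.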

Other observations

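Gaps in mitochondrial RNA, which has no introns, differed between the libraries. They were found in 75 distinct read pairs over 29 distinct gaps, 26 read pairs in brain 1 (49 lines) and 65 in brain 2 (120 lines). A gap of 458 bases in mt-Rnr2, at chrM:1274-1731, was seen in 16 read pairs of brain 2 (37 lines) and in none of brain 1. The part of the library in this was not tested.

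Several short inner blocks had no annotated exon and no known splice ends. Psap, the precursor of the saposins, had gaps of 302 and 2784 bases in 11 and 12 read pairs, and Snap91 had gaps of 39 and 5836 bases in 8, all with ends other than GT-AG, GC-AG or AT-AC. Fgf12, a regulator of sodium channels, had an unannotated GT-AG gap of 354445 bases in 5 read pairs (5 in brain 1, 4 in brain 2). These genes were named after their values were seen.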
